A study of Mus musculus with 16 samples.

Results

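The genes described here are 9 genes of calcium and phosphate handling in the mouse hippocampus: the stanniocalcins Stc1 and Stc2, the calcium-sensing receptor Casr, the vitamin D receptor Vdr, the parathyroid hormone receptor Pth1r and its ligand gene Pthlh, the phosphate importers Slc20a1 and Slc20a2, and the phosphate exporter Xpr1. The set was drawn up by function around Stc1, and Stc1 itself was chosen by its measured values. In SAM/P-8 its CCH-fed and control arrays differed by 1 probe, and its probes disagreed. That contrast and the difference between the diet effects of the strains were known when Stc1 was chosen. Both are therefore described for these genes and not tested. Probes were assigned to a gene by the RefSeq transcript that the array files give for them. By that rule 8 of the 9 genes had a probe, 14 probes in all, and no probe was matched to Pthlh. Of the 14 probes, 12 (for 7 genes) passed the filter on dim probes (well above background on every array of 1 group or more) and were tested with 29009 probes in all, which stood for 13459 named genes. Casr had no tested probe.

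Total RNA of the hippocampus was hybridised to 16 1-colour Agilent arrays, 4 in each of 4 groups. The mice were males of 2 inbred lines of the senescence-accelerated mouse (SAM), the prone line SAM/P-8 and the resistant line SAM/R-1, both derived from AKR/J stock. Feeding began at 8 weeks of age and lasted 8 weeks. In each line a control group received the rodent diet CE-2, and a CCH group received CE-2 with 0.1% coral calcium hydride (CCH). The 4 groups are thus SAM/P-8 control, SAM/P-8 CCH, SAM/R-1 control and SAM/R-1 CCH, and they carry no other treatment that the labels name. Whether the numbered replicates are different animals is not said in the labels, and a p-value then measures the spread between these samples alone, which may be technical.

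Stanniocalcins are secreted glycoproteins first known as calcium-lowering hormones of bony fish; in mammals they act mostly within tissues, and Stc2 also blocks the protease pregnancy-associated plasma protein A (Pappa). Calcium outside the cell is read by Casr, while Vdr and Pth1r relay the systemic hormones that set calcium and phosphate. Phosphate enters cells through the sodium-dependent transporters Slc20a1 (PiT-1) and Slc20a2 (PiT-2) and leaves through Xpr1, and inherited loss of the human counterparts of Slc20a2 or Xpr1, or of the growth factor Pdgfb or its receptor Pdgfrb, is known to cause primary brain calcification.

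Values are log2 signals minus the 75th percentile of the array, so that -3 is a level 3 log2 units under that percentile; they are compared between arrays for the same probe and never between probes. Per array 28920 to 33333 of 43379 non-control spots exceeded background clearly, and precision is limited by the number of arrays. Every group occupied its own slide; group and slide therefore cannot be told apart. Of 8 hippocampal neuron markers 7 were tested and all 7 were well above background on 16 arrays. SAM/P-8 CCH replicate 4 stood apart by 8 striatal markers, with a mean score (log2 units from each gene's mean) of 3.97, while the 3 other SAM/P-8 CCH arrays had -0.41 to 0.09. The endothelial and pericyte markers, all 8 tested, were higher in SAM/P-8 for 7 of 8 on the control diet and 5 of 8 on the CCH diet, with scores from 0.33 to 0.72 on the SAM/P-8 arrays and from -0.84 to -0.26 on the SAM/R-1 arrays; over all probes tested 13.8% and 13.5% passed in these contrasts. Microglia markers were higher for 1 and 4 of 8 and meningeal and fibroblast markers for 1 and 2 of 8, the latter with median differences of 0.60 and 0.68. Choroid plexus scores ran from -3.20 to 1.76 over the 16 arrays. The part of these markers in the strain differences below was not tested. In tissue RNA, fewer cells of a type and less RNA per cell cannot be told apart.

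The upstream sequences of Slc20a1 and Xpr1 are shown because these were the genes other than Stc1 with a probe past the threshold. RefSeq also lists 2 starts for Slc20a1, whose probes gave strain differences of opposite sign on the control diet. They are from RefSeq (build GRCm38.p6), 250 bases before each start, 5′ to 3′ on the gene's strand. The Slc20a1 windows lie at chr2:129198523-129198772 and chr2:129206846-129207095 on the plus strand, and the Xpr1 window at chr1:155417445-155417694 on the minus strand. Capitals mark 4 motifs searched on both strands: AGGTCA and GGTTCA, hexamers of vitamin D response elements, ACGTG, the core of hypoxia response elements, and TGACG, the core of cAMP response elements.
Slc20a1, first start: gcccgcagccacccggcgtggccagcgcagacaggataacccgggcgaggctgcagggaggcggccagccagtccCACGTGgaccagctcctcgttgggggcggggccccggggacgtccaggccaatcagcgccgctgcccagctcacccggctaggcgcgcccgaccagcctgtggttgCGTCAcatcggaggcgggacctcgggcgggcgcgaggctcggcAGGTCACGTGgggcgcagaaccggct
Slc20a1, second start: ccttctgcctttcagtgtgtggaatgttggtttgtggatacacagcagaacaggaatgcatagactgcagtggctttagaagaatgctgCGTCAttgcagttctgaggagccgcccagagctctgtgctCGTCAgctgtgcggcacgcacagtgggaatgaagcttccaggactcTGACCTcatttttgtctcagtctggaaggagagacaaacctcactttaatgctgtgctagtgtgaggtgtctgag
Xpr1: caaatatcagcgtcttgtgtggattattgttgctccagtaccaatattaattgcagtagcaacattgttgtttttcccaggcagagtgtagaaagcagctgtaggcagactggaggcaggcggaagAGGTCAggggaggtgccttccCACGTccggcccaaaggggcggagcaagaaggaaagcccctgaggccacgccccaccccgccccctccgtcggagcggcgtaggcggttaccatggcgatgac

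AGGTCA stood in all 3 windows, 26 bases before the first Slc20a1 start, 75 before the second and 124 before the Xpr1 start. It stood in 14.0% of 32817 promoter windows of that length. No window of Pthlh, Pth1r, Stc2, Vdr or Casr, the other genes of the set with a window, held it. GGTTCA stood in none of the 3 and in 8.84% of all windows. Among the other genes of the set only the Pthlh window held it, 88 bases before the start. At the first Slc20a1 start ACGTG matched at 4 positions, which are 2 palindromes read on both strands, and the nearer palindrome overlapped the AGGTCA by 2 bases; Xpr1 held 1 ACGTG, and 16.6% of all windows held it. TGACG matched 1 time at the first Slc20a1 start, 2 times at the second and not at Xpr1, against 17.7% of all windows. GGGCGG, the GC box, which is not in capitals, was found 2, 1 and 2 times in the windows in the order printed, and in 32.7% of all windows. The GC content was 75.2%, 50.8% and 57.6%. The Stc2 window (chr11:31370062-31370311, minus strand, GC content 64.4%) held none of the 5 motifs. A match is a string of letters and no evidence of binding, and which start each probe reads was not analysed here.

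Stc1, stanniocalcin 1, was read by 3 probes that did not behave alike. Probe A_52_P189970 was well above background on all 16 arrays. On the control diet it stood at -3.26, -3.09, -3.04 and -3.28 on the SAM/P-8 arrays and at -3.96, -3.77, -3.84 and -3.84 on the SAM/R-1 arrays. On the CCH diet it stood at -3.74, -3.86, -3.90 and -3.79 in SAM/P-8 and at -3.88, -3.76, -3.56 and -3.93 in SAM/R-1. The 4 SAM/P-8 control arrays were thus the high ones, from -3.28 to -3.04, and lay apart from the other 12, which ran from -3.96 to -3.56. The group means ± SD (n = 4) were -3.17 ± 0.12 in SAM/P-8 control, -3.82 ± 0.07 in SAM/P-8 CCH, -3.85 ± 0.08 in SAM/R-1 control and -3.78 ± 0.17 in SAM/R-1 CCH, and the last 3 groups overlapped one another.

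The CCH minus control difference of that probe in SAM/P-8 was -0.66 ± 0.08 (SE), or 1.58-fold, a value that was known when the gene was chosen. The strain difference on the control diet was 0.68 ± 0.08 (P-8 minus R-1), and it uses the same SAM/P-8 control arrays; on the CCH diet the strain difference was -0.04 ± 0.08. These 3 values are given as a description with no test. The CCH effect in SAM/R-1 was 0.07 ± 0.08 and did not pass (limma adjusted p = 0.799). The difference between the 2 diet effects, which uses the SAM/R-1 arrays, was also known when Stc1 was chosen. For Stc1 the SAM/R-1 result is therefore not independent of the choice. The normexp alternative estimated the background from the median signal and local background of each spot, so the input signal changed too. With it the difference in SAM/P-8 was -0.23 ± 0.27 and that in SAM/R-1 0.39 ± 0.27. The strain difference was then 0.36 on the control diet and -0.26 on the CCH diet. The difference between the 2 diet effects, described only, was -0.73 ± 0.11, and -0.62 ± 0.38 with normexp. Red blood cell markers, 3 of 4 tested, had scores of 1.93, 2.66, -0.14 and 0.07 on SAM/P-8 control replicates 1 to 4. On the other 12 arrays the scores ran from -1.11 to 0.30, and replicates 3 and 4 lay within that range. The part of these markers in the Stc1 level was not tested.

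Probe A_52_P315733, assigned to the same Stc1 transcript, was well above background on 14 of 16 arrays, the exceptions being 2 of the 4 SAM/P-8 control arrays. The control groups read -5.72, -5.70, -5.51 and -5.67 in SAM/P-8 and at -5.39, -5.57, -5.53 and -5.35 in SAM/R-1. With CCH the values were -5.62, -5.44, -5.47 and -5.17 in SAM/P-8 and at -5.52, -5.89, -5.34 and -5.29 in SAM/R-1. The SAM/P-8 control arrays, high by the other probe, were among the low ones here, and all 4 groups overlapped. Its difference between the diets in SAM/P-8 was 0.22 ± 0.12 and the strain difference on the control diet -0.19 ± 0.12, each of opposite sign to that of A_52_P189970, and both are descriptions only. In SAM/R-1 the CCH effect was -0.05 ± 0.12 (limma adjusted p = 0.914), which is likewise not independent of the choice of Stc1. Across the 16 arrays the levels by the 2 probes had a Pearson's r of -0.42, given as a description. The lowest signal well above background on an array ranged from -6.84 to -5.51, so this probe was read close to that limit. The third probe, A_51_P233334, was well above background on 0 of 16 arrays, with values from -7.83 to -6.49, and was not tested. Where in the transcript each probe lies was not analysed here.

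Stc2, stanniocalcin 2, had 1 probe, well above background on all 16 arrays. It stood on the control diet at -4.00, -4.15, -4.30 and -4.18 in SAM/P-8 and at -4.28, -4.30, -4.46 and -4.37 in SAM/R-1. After CCH feeding it stood at -3.94, -3.93, -3.81 and -4.18 in SAM/P-8 and at -4.12, -4.13, -4.39 and -4.38 in SAM/R-1. The SAM/P-8 arrays sat toward the high side on both diets, but on each diet 1 SAM/P-8 array fell within the SAM/R-1 range. The strain difference was 0.19 ± 0.09 on the control diet (limma adjusted p = 0.188) and 0.29 ± 0.09 on the CCH diet (adjusted p = 0.0507), and neither passed. Leaving out 1 array at a time moved the latter between adjusted p = 0.0162 and 0.143: it passed without SAM/P-8 CCH replicate 4 (0.36, adjusted p = 0.0162), SAM/P-8 control replicate 1 or 3, or SAM/R-1 CCH replicate 1 or 2. It also passed with the filter on all 16 arrays (adjusted p = 0.0477) and in the authors' value table (adjusted p = 0.0496), and with normexp its sign turned to -0.12. The CCH minus control differences were 0.10 in SAM/R-1 (adjusted p = 0.739) and, as a description, 0.19 in SAM/P-8.

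**Figure D1:**
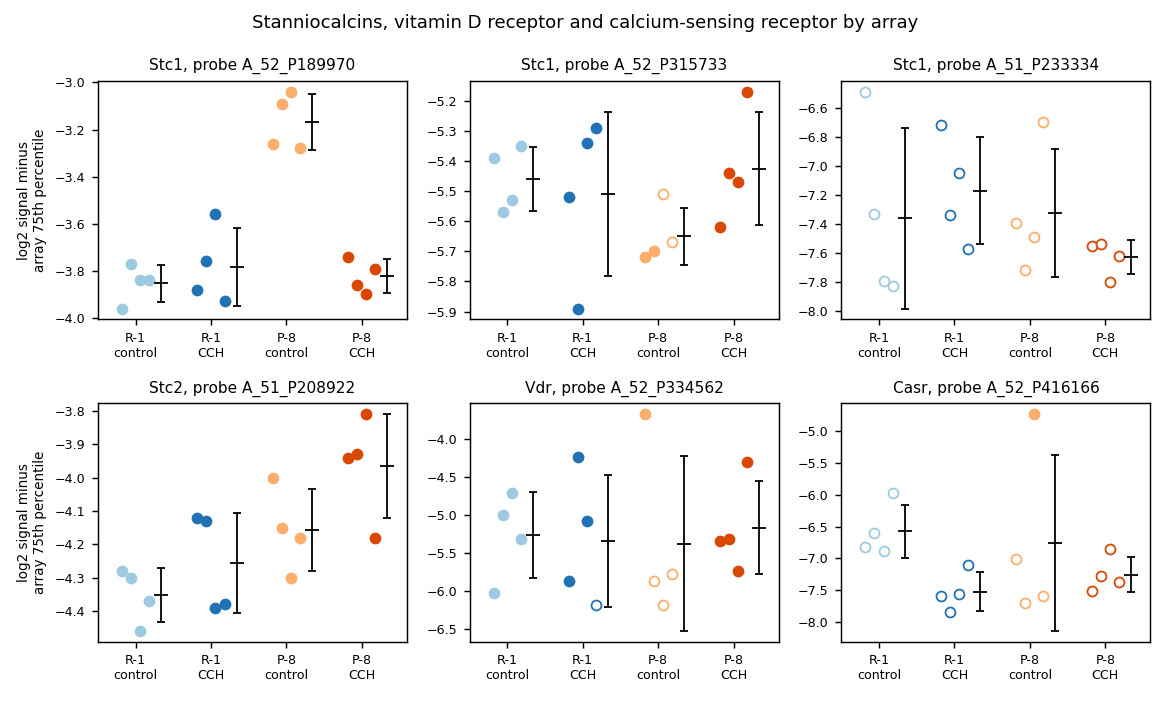
Log2 signal minus the array's 75th percentile (vertical axes, which differ between panels and do not start at 0) of the 3 Stc1 probes and of Stc2, Vdr and Casr in the 4 groups. Each point is 1 array, filled where the probe was well above background and open where not, and the black bars are group means ± SD (n = 4). By Stc1 probe A_52_P189970 the SAM/P-8 control arrays lie between -3.28 and -3.04, above the other 12, while by probe A_52_P315733 the 4 groups overlap.

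Calcium sensing and the hormone receptors showed no difference that passed the test. Casr, the receptor through which parathyroid cells read blood calcium, was well above background on 1 of 16 arrays, SAM/P-8 control replicate 3 at -4.73, so no difference can be given for it. Vdr, the nuclear receptor of active vitamin D, was well above background on 4 of 4 SAM/P-8 CCH, 1 of 4 SAM/P-8 control, 3 of 4 SAM/R-1 CCH and 4 of 4 SAM/R-1 control arrays. Without CCH the values were -3.68, -5.87, -6.18 and -5.78 in SAM/P-8 and at -6.03, -5.00, -4.71 and -5.32 in SAM/R-1. The CCH groups read -5.34, -5.31, -5.73 and -4.30 in SAM/P-8 and at -5.87, -4.24, -5.08 and -6.18 in SAM/R-1. Each group held high and low arrays, and all 4 groups overlapped.

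The strain difference of Vdr was -0.11 ± 0.54 on the control diet (limma adjusted p = 0.927) and 0.17 on the CCH diet (adjusted p = 0.87), and the CCH effect in SAM/R-1 was -0.07 (adjusted p = 0.975). Without SAM/P-8 control replicate 1, its highest array, the strain difference on the control diet was -0.68 ± 0.44 (adjusted p = 0.371), so a difference of that size was not detectable with these arrays. In SAM/P-8 the diets differed by 0.21 ± 0.54, as a description.

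Pth1r, the receptor shared by parathyroid hormone and its related peptide, was well above background on all 16 arrays. The control arrays gave -0.71, -0.66, -0.77 and -0.56 in SAM/P-8 and -0.69, -0.67, -0.79 and -0.92 in SAM/R-1. Under the CCH diet it read -0.46, -0.94, -0.74 and -0.72 in SAM/P-8 and at -0.56, -0.32, -0.65 and -0.78 in SAM/R-1. All 4 groups overlapped. The strain differences were 0.09 ± 0.11 on the control diet (limma adjusted p = 0.625) and -0.14 on the CCH diet (adjusted p = 0.417), the CCH effect in SAM/R-1 was 0.19 ± 0.11 (adjusted p = 0.536), and the description for SAM/P-8 was -0.04.

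Slc20a1, the phosphate importer PiT-1, differed between the strains on the control diet by one of its 2 probes. Probe A_52_P520507 stood on the control diet at -2.84, -2.66, -2.80 and -2.79 in SAM/P-8 and at -2.42, -2.27, -2.08 and -2.45 in SAM/R-1. The CCH arrays gave -2.71, -2.55, -2.65 and -2.75 in SAM/P-8 and -2.62, -2.74, -2.64 and -2.56 in SAM/R-1. The 4 SAM/R-1 control arrays were the high ones and lay apart from the other 12, which ran from -2.84 to -2.55. On the control diet the level was 1.38-fold lower in SAM/P-8 (-0.46 ± 0.08, limma adjusted p = 0.000839), and the call was lost only with normexp (-0.35, adjusted p = 0.372) among the alternatives and left-out arrays. On the CCH diet the strain difference was -0.02 (adjusted p = 0.868). Within SAM/R-1, where the comparison uses the same SAM/R-1 control arrays, the CCH minus control difference was -0.33 ± 0.08 and did not pass (adjusted p = 0.133), although the 4 and 4 arrays did not overlap.

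Probe A_51_P408631 of Slc20a1 did not follow. On the control diet it stood at 3.16, 2.92, 2.86 and 2.96 in SAM/P-8 and at 2.78, 2.66, 2.78 and 2.76 in SAM/R-1. On the CCH diet it stood at 3.05, 2.79, 2.97 and 3.02 in SAM/P-8 and at 2.95, 2.92, 2.98 and 2.74 in SAM/R-1. Here the SAM/R-1 control arrays were on the low side, apart from the SAM/P-8 control arrays but not from the SAM/R-1 CCH arrays. The strain difference on the control diet was 0.23 ± 0.08 (limma adjusted p = 0.0594), which passed without SAM/P-8 CCH replicate 2 (adjusted p = 0.044) or SAM/P-8 control replicate 3 (adjusted p = 0.0462) and with an intensity trend (adjusted p = 0.0424), and it was 0.06 on the CCH diet (adjusted p = 0.633). The CCH effect in SAM/R-1 was 0.15 (adjusted p = 0.494).

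Whether the Slc20a1 probes disagreed was tested directly on the difference between them on each array. That difference (A_51_P408631 minus A_52_P520507) exceeded that of SAM/R-1 by 0.69 in SAM/P-8 on the control diet and that of control by 0.49 on CCH in SAM/R-1. Each gave p = 0.0286 in a two-sided exact permutation test, the smallest p that 4 against 4 arrays allow. Adjusted by Benjamini-Hochberg over the 15 such tests run for Slc20a1, Slc20a2 and Xpr1, each was 0.0857, so neither passed. At that smallest p a test passes only if most of the 15 reach it, so not passing does not show that the probes agree. Between the strains on the CCH diet the difference between the probes shifted by 0.09 (exact permutation p = 0.514). In SAM/P-8 the diets differed, as a description, by 0.11 by A_52_P520507 and by -0.02 by A_51_P408631. Strain variants under the probes could not be checked, so their part in any strain difference was not tested.

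Slc20a2, the importer PiT-2, was read by 2 probes, and no difference passed by either. Probe A_52_P229044 stood on the control diet at -1.26, -1.22, -1.44 and -1.39 in SAM/P-8 and at -1.49, -1.32, -1.66 and -1.48 in SAM/R-1. With CCH it stood at -1.17, -1.12, -1.36 and -1.21 in SAM/P-8 and at -1.33, -1.53, -1.55 and -1.41 in SAM/R-1. On both diets the groups overlapped, with SAM/P-8 toward the high side. Probe A_52_P504236 ran from -2.00 to -1.72 in SAM/P-8 control and from -2.07 to -1.84 in SAM/R-1 control, and from -1.91 to -1.55 in SAM/P-8 CCH and from -2.06 to -1.89 in SAM/R-1 CCH. The strain differences on the control diet were 0.16 (limma adjusted p = 0.227) and 0.06 (adjusted p = 0.687) by the 2 probes.

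On the CCH diet the strain difference of Slc20a2 was 0.24 ± 0.08 by each probe (limma adjusted p = 0.0635 for A_52_P229044 and 0.0643 for A_52_P504236), which did not pass. It passed by A_52_P229044 without SAM/P-8 CCH replicate 3 (0.29, adjusted p = 0.0382), SAM/R-1 CCH replicate 1 or SAM/R-1 control replicate 3, and by A_52_P504236 without SAM/P-8 CCH replicate 3 (0.30, adjusted p = 0.0259) or SAM/P-8 control replicate 2. The CCH effect in SAM/R-1 was 0.03 (adjusted p = 0.929) and -0.00 (adjusted p = 0.99), and the description for SAM/P-8 was 0.11 and 0.18. The difference between the Slc20a2 probes shifted by 0.10, 0.00 and 0.03 in the 3 tested contrasts (exact permutation p = 0.2, 0.943 and 0.8).

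Xpr1, the phosphate exporter, was higher in SAM/P-8 by some of its 3 probes, all of which were well above background on all 16 arrays. Probe A_52_P678117 stood on the control diet at -1.83, -1.87, -1.89 and -1.79 in SAM/P-8 and at -2.04, -2.01, -2.14 and -2.26 in SAM/R-1. The arrays of the CCH groups read -1.61, -1.73, -1.94 and -1.69 in SAM/P-8 and at -1.91, -2.00, -1.94 and -2.15 in SAM/R-1. The strains lay apart on the control diet, and on the CCH diet SAM/P-8 CCH replicate 3 fell within the SAM/R-1 range. The level was 1.20-fold higher in SAM/P-8 on both diets, by 0.27 ± 0.08 on the control diet (limma adjusted p = 0.0326) and by 0.26 ± 0.08 on the CCH diet (adjusted p = 0.0388). The first call ended when any of the 4 SAM/P-8 control arrays or SAM/R-1 control replicate 3 or 4 was left out (adjusted p up to 0.0936), and the second without SAM/P-8 CCH replicate 1, 2 or 4 or SAM/R-1 CCH replicate 2, 3 or 4 (adjusted p up to 0.116). With normexp the differences were 0.18 and 0.13 and neither passed, nor did either without a filter on dim probes (adjusted p = 0.0523 and 0.0521) or the second with quantile normalization (adjusted p = 0.0544) or only the arrays compared (adjusted p = 0.102).

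Probe A_52_P419999 stood on the control diet at -4.74, -4.70, -4.62 and -4.42 in SAM/P-8 and at -4.69, -4.50, -4.69 and -4.86 in SAM/R-1. The CCH arrays gave -4.43, -4.42, -4.42 and -4.49 in SAM/P-8 and -4.65, -4.74, -4.65 and -5.03 in SAM/R-1. The strains overlapped on the control diet and lay apart on the CCH diet, where the SAM/P-8 arrays were close together. The strain difference was 0.06 on the control diet (limma adjusted p = 0.735) and 0.33 ± 0.09 on the CCH diet (adjusted p = 0.0319). That call ended without SAM/P-8 CCH replicate 1, 2 or 3 or SAM/R-1 CCH replicate 2 or 4 (0.24 without the last, adjusted p = 0.0905), with quantile normalization, an intensity trend or only the arrays compared (adjusted p = 0.0634, 0.0641 and 0.0537), and with normexp the value turned to -0.19 (adjusted p = 0.798).

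Probe A_52_P451574 of Xpr1 ran from 3.31 to 3.51 over all 16 arrays, the narrowest range of the 14 probes. Its strain differences were -0.03 (limma adjusted p = 0.747) and 0.02 (adjusted p = 0.84) on the control and the CCH diet. Against A_52_P678117 its strain difference was smaller by 0.30 on the control diet, and against A_52_P419999 smaller by 0.31 on the CCH diet. Each had an exact permutation p = 0.0286, and 0.0857 after adjustment over the 15 tests. In SAM/R-1 the CCH effect by A_52_P678117 exceeded that by A_52_P419999 by 0.19, with the same exact permutation p and adjusted p. The CCH effect in SAM/R-1 did not pass by any Xpr1 probe, with -0.01 by A_52_P451574, 0.11 by A_52_P678117 and -0.08 by A_52_P419999 (adjusted p = 0.977, 0.627 and 0.793). In SAM/P-8 these were 0.04, 0.10 and 0.18, as a description.

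**Figure D2:**
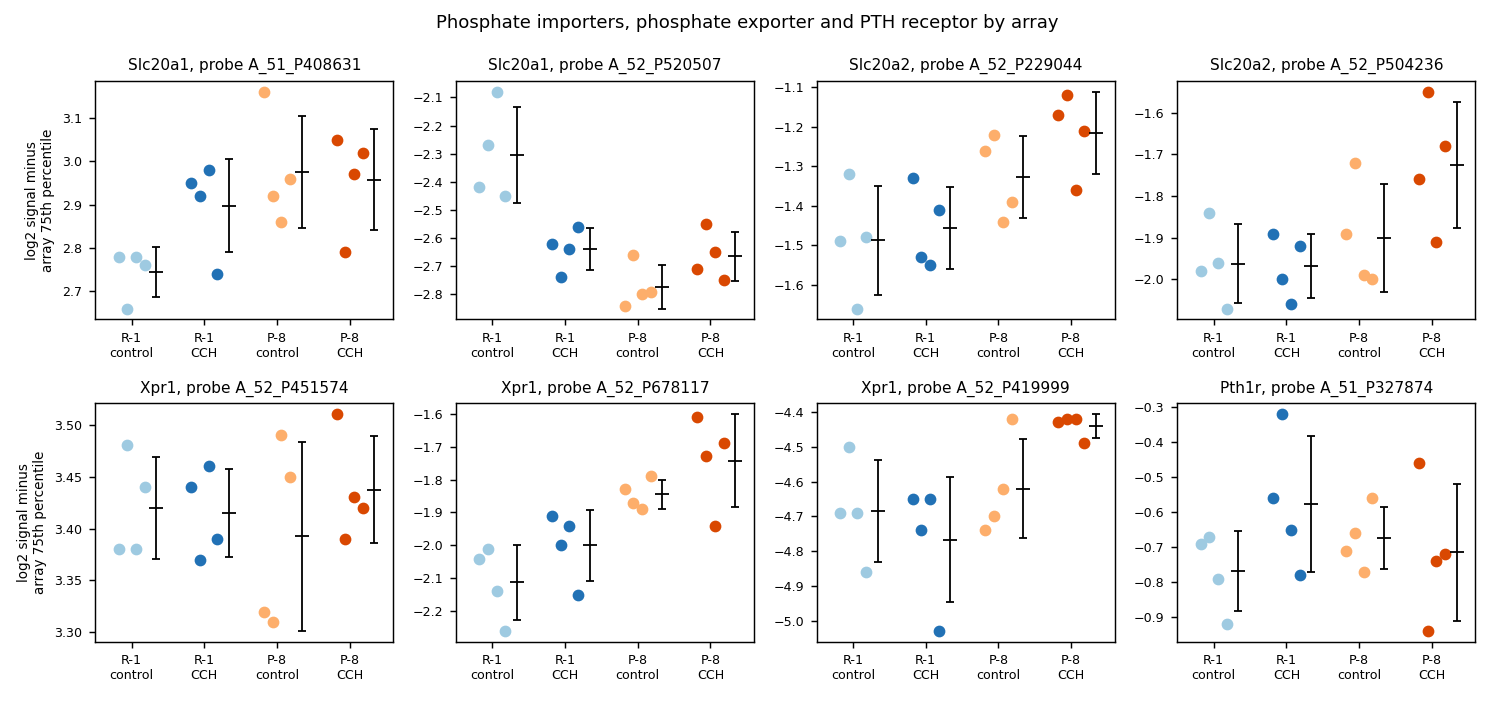
Log2 signal minus the array's 75th percentile (vertical axes, which differ between panels and do not start at 0) of the probes of Slc20a1, Slc20a2, Xpr1 and Pth1r in the 4 groups. Each point is 1 array, all of them well above background, and the black bars are group means ± SD (n = 4). The SAM/R-1 control arrays lie above the other 12 by Slc20a1 probe A_52_P520507, and the SAM/P-8 arrays above the SAM/R-1 arrays on the control diet by Xpr1 probe A_52_P678117.

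Over the 12 tested probes, limma called 3 in the strain difference on the control diet, among them the Stc1 probe that is described only, against 13.8% of all probes tested. On the CCH diet it called 2, against 13.5%. Without the Stc1 probes these were 2 of 10 on each diet, 1 of Slc20a1 and 1 of Xpr1 on the control diet and 2 of Xpr1 on the CCH diet, so the shares were near the background. The count of 2 on the CCH diet became 0 without SAM/P-8 CCH replicate 1 or 2 or SAM/R-1 CCH replicate 4, 1 without SAM/R-1 CCH replicate 2 or 3 and 4 without SAM/R-1 CCH replicate 1. The arrays of the compared groups did not overlap for 3 of 10 probes on the control diet, where 19.5% of all probes did not, and for 1 of 10 on the CCH diet, where 20.6% did not. The median difference of the 12 probes was 0.08 and 0.13 on the 2 diets, beside -0.02 and -0.02 over all probes.

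In SAM/R-1 the CCH effect passed for 0 of the 12 probes by limma, where 0.114% of all probes passed; 1 probe, Slc20a1 A_52_P520507, had an unadjusted p under 0.05, and it was also the 1 of 12 whose groups did not overlap, beside 8.72% of all probes. In SAM/P-8 the Stc1 probe A_52_P189970 was the 1 of 12 past the threshold and without overlap, which the choice of the gene fixed; the shares over all probes were 0.862% and 9.77%. The median differences of the 12 probes were 0.01 in SAM/R-1 and 0.11 in SAM/P-8, beside -0.01 and -0.01 over all probes. The 4 contrasts share arrays in pairs, so agreement between them is not read.

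**Figure D3:**
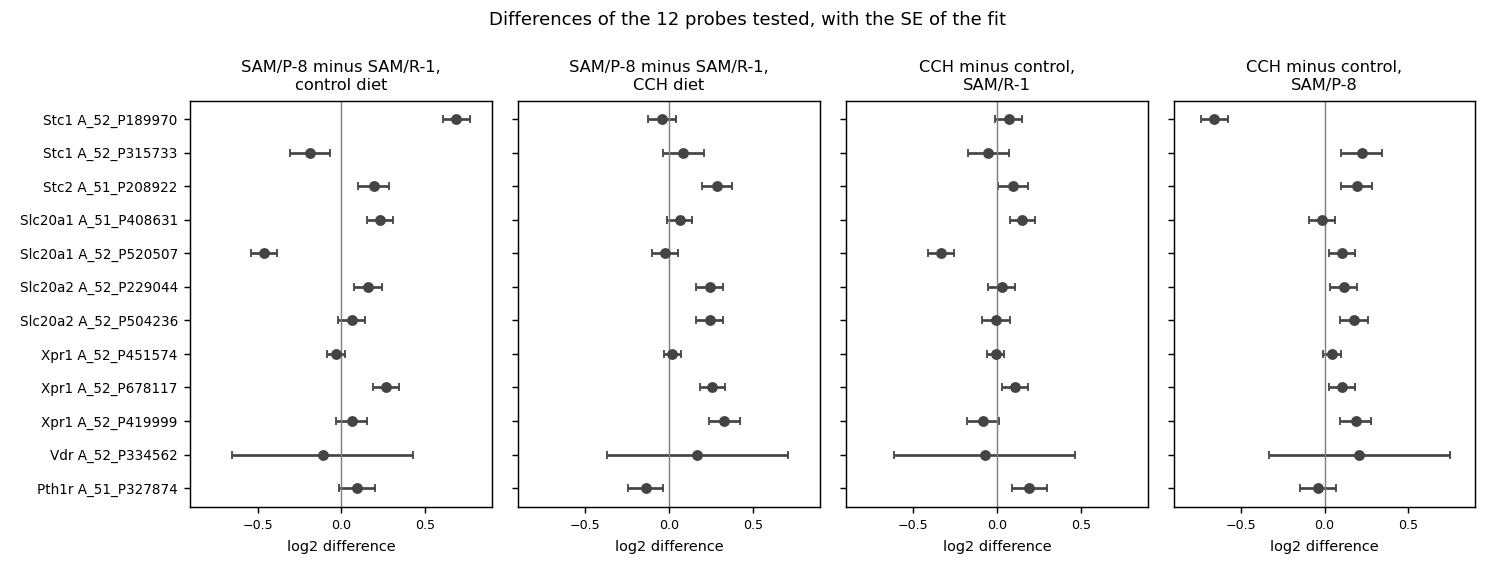
Log2 differences (horizontal axes) of the 12 tested probes in the strain contrast on each diet and in the CCH contrast in each strain, with points for the fitted difference and bars for its SE. Stc1 A_52_P189970 stands at 0.68 and -0.66 in the 2 contrasts that use the SAM/P-8 control arrays and near 0 in the others, and Vdr has the widest bars.

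Of the wider pathway, 76 genes were listed and 60 had a tested probe, each taken by its probe with the highest mean signal. On the control diet 5 of the 60 were higher and 2 lower in SAM/P-8, with a median of 0.06, and on the CCH diet 4 were higher and 5 lower, with a median of -0.02. These are 11.7% and 15.0% of the list, beside 13.8% and 13.5% over all probes, which are the background of the counts by group too. In SAM/R-1 the CCH effect passed for 0 of 60 by limma, where 0.114% of all probes passed, and 3 of the 60 had an unadjusted p under 0.05, against 10.9% of all probes. In SAM/P-8, the contrast that the choice of members used, 1 of 60 was called, beside 0.862% of all probes: Phospho1 at -0.51, given as a description. For 20 of the 60 genes another 28 probes were tested, and limma called 4 of these higher on the control diet (14.3%) and 6 higher and 1 lower on the CCH diet (25.0%). The counts by group therefore hold for 1 probe per gene; the other probes that passed are named beside them because they passed, and were not run under the alternatives.

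Among hormone ligands and receptors, 7 of 10 tested, Calcrl, the receptor for calcitonin gene-related peptide and adrenomedullin and a gene of endothelial cells, was higher in SAM/P-8 by 0.96 ± 0.07 on the control diet (limma adjusted p = 3.67e-07) and by 1.01 ± 0.07 on the CCH diet (adjusted p = 2.04e-07). Its groups did not overlap on either diet, and no alternative or left-out array ended the calls. Pth2, the ligand of the second parathyroid hormone receptor, was lower by 0.32 on the log2 scale on the control diet (-0.32 ± 0.07, adjusted p = 0.00576) and by 0.24 on the CCH diet (-0.24 ± 0.07, adjusted p = 0.0315). The latter call ended without SAM/P-8 CCH replicate 1, 2 or 4 or any SAM/R-1 CCH array (-0.21 without SAM/P-8 CCH replicate 2, adjusted p = 0.0852), and with an intensity trend (adjusted p = 0.0605). In the vitamin D system 1 of 7 tested genes passed on the control diet and, by limma, 0 on the CCH diet (3 and 2 unadjusted): Med1, a coactivator subunit that nuclear receptors recruit, stood at 0.18 ± 0.05 (adjusted p = 0.0243), with its other probes at 0.01 and 0.13 and neither past the threshold. That call ended without SAM/P-8 control replicate 2 or 4 or SAM/R-1 control replicate 2 or 3 (0.16 without the last, adjusted p = 0.0729). Med1 was on the CCH diet at 0.06 by that probe and at 0.11 and 0.42 by the other 2, of which the last passed (adjusted p = 0.0238). Rxrb, a partner of Vdr on DNA, was at 0.09 on the control diet and passed by its other probe (0.38, adjusted p = 0.0238).

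In the group of brain calcification genes and stanniocalcin partners, 7 of 8 tested, the growth factor Pdgfb and its receptor Pdgfrb, whose human counterparts share a disease with those of Slc20a2 and Xpr1, differed in opposite directions. Pdgfrb, a pericyte gene that is also 1 of the 8 endothelial and pericyte markers, was higher in SAM/P-8 by 0.52 ± 0.10 on the control diet (limma adjusted p = 0.00300) and by 0.70 ± 0.10 on the CCH diet (adjusted p = 2.68e-04). Pdgfb was lower, at -0.51 ± 0.10 (adjusted p = 0.00337) and -0.44 ± 0.10 (adjusted p = 0.0105; 0.0533 with only the arrays compared), but its other probe gave -0.25 (adjusted p = 0.193) and 0.01 (adjusted p = 0.956). Pappa, the protease that Stc2 blocks, was higher on the control diet by 0.34 ± 0.11 (adjusted p = 0.0472), a call that held only without SAM/P-8 control replicate 2 or 4 or SAM/R-1 control replicate 4 and ended without any other array (leaving out replicate 3 of SAM/P-8 control gave 0.26, adjusted p = 0.134). It also ended with quantile normalization (adjusted p = 0.0630), without a filter on dim probes (0.0718), in the authors' value table (0.0518) and with only the arrays compared (0.133).

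Of 7 tested genes of pyrophosphate and mineralization, Enpp1, which makes the mineralization inhibitor pyrophosphate, was higher in SAM/P-8 by 0.77 ± 0.20 on the control diet (limma adjusted p = 0.0214) and by 0.96 ± 0.20 on the CCH diet (adjusted p = 0.00587). The former call ended without SAM/P-8 control replicate 1 or 3 or SAM/R-1 control replicate 1 (0.64, adjusted p = 0.0672) or 4, and with only the arrays compared (adjusted p = 0.0661). Phospho1, a phosphatase of mineralizing cells, was lower on the CCH diet (-0.33 ± 0.09, adjusted p = 0.0287), where 2 of 4 SAM/P-8 arrays were well above background. That call ended without SAM/P-8 CCH replicate 1, 3 or 4 or SAM/R-1 CCH replicate 1, 2 or 3 (-0.28 without the last, adjusted p = 0.0911), with an intensity trend (adjusted p = 0.0836) and with only the arrays compared (0.112). Among 8 tested genes of FGF23, klotho and the phosphate hormones, Mepe, a matrix phosphoglycoprotein, was lower on the CCH diet (-0.57 ± 0.11, adjusted p = 0.00252). Of 12 tested genes of phosphate transport and its regulation and 5 of epithelial calcium handling, 0 passed in either strain contrast by limma at the probe with the highest mean signal (1 on the control diet and 2 on the CCH diet at an unadjusted p under 0.05, all of the 12). Other probes passed for 3 of these genes. Ip6k1, an inositol hexakisphosphate kinase, was at 0.09 and -0.04 on the control and CCH diets, and its other 2 probes gave 0.16 (adjusted p = 0.0239) and 0.23 (0.00904) on the control diet and 0.09 (0.166) and 0.21 (0.0181) on the CCH diet. Atp2b1, a calcium pump of the plasma membrane, was at 0.19 on the CCH diet and at 0.38 by its other probe (adjusted p = 0.00733). Slc8a1, a sodium-calcium exchanger, was at 0.03 on the control diet, and its other 3 probes gave -0.11, 0.42 and 0.03, of which 0.42 passed (adjusted p = 0.0499).

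In the signalling of the calcium-sensing receptor 0 of 7 tested genes passed by limma on the control diet and 2 on the CCH diet (0 and 3 unadjusted). Rgs4, which shortens G protein signals, was higher in SAM/P-8 by 0.84 ± 0.23 (limma adjusted p = 0.0247) and by 0.94 by its other probe (adjusted p = 0.0304). Without SAM/P-8 CCH replicate 4, the array with the high striatal score, it was 0.53 ± 0.11 (adjusted p = 0.00772), and the call was lost without SAM/R-1 CCH replicate 1, 2 or 3 (adjusted p up to 0.0547) and with only the arrays compared (0.104). Ap2s1, an adaptor subunit that takes part in receptor uptake, was lower, at -0.29 ± 0.09 (adjusted p = 0.0475) and -0.27 by its other probe (adjusted p = 0.0252), and the first value kept its call only without SAM/P-8 CCH replicate 1 or SAM/R-1 CCH replicate 4 (without SAM/P-8 CCH replicate 4 it was -0.22, adjusted p = 0.127, and without SAM/R-1 CCH replicate 2 it was -0.19, adjusted p = 0.104). It also ended with quantile normalization (adjusted p = 0.0613), without a filter (0.0567) and with only the arrays compared (0.155). Plcb1, a phospholipase C that G proteins of the Gq class activate, was at 0.12 on the CCH diet, while its other 2 probes passed at 0.31 (adjusted p = 0.0415) and 0.28 (0.0209). With normexp the calls of Calcrl and Pdgfrb held on both diets, and those of the other genes called by the probe with the highest mean signal ended.

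The genes whose levels ran most like Stc1 were ranked by Pearson's r over the 16 arrays among 12740 named genes well above background on all of them, as a description; the arrays share their 4 groups and slides. For A_52_P189970 the highest were Mon2 at 0.92, Itpr2 at 0.91, Tmem177 at 0.88, Tbcd at 0.86 and AY761185 at 0.86, and the lowest were Rnaseh1 at -0.87, Cbx8 at -0.86 and Zfp111 at -0.85. For A_52_P315733 they were Zswim5 at 0.85, Scp2 at 0.84, 4921524J17Rik at 0.82, Spata5 at 0.82 and Depdc7 at 0.81, and the lowest were Acox3 at -0.89, Fam207a at -0.83 and Tmub1 at -0.82. The 2 probes of Stc1 had no gene in common among those named, but so few of the 12740 are named that little can be read from it. The ranking for A_52_P189970 uses the arrays by which Stc1 was chosen. Of the other genes of the set, by the probe with the highest mean signal, r with A_52_P189970 ran from -0.14 for Xpr1 to 0.38 for Slc20a1, and r with A_52_P315733 from -0.62 for Pth1r to 0.27 for Xpr1.

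**Figure D4:**
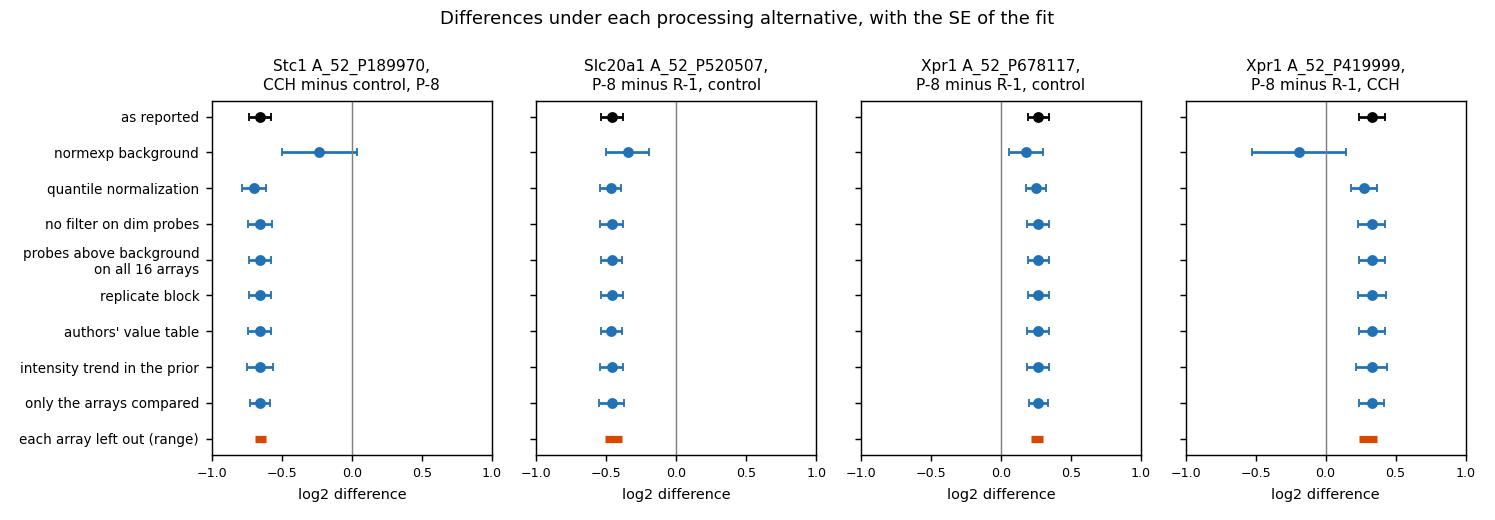
Log2 differences (horizontal axes) of 4 results under each processing alternative, with points for the fitted difference, bars for its SE and thick red bars for the range when each of the 16 arrays was left out. The Stc1 and Slc20a1 values keep their sign throughout, shrink with normexp to -0.23 and -0.35, and Xpr1 A_52_P419999 turns to -0.19 there.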

How the data were processed

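Hippocampal RNA of 16 samples was measured on 1-colour arrays, and the labels gave the groups. The deposited scanner files come from Agilent Feature Extraction 9.5.3.1 and hold, per the file headers, for each spot a processed signal, a median signal and a local background, all as intensity, with flags for signal well above background, non-uniformity and saturation. The authors' deposited value table is on a log2 scale. The processed signal was taken as log2 minus the array's 75th percentile over non-control spots, non-uniform spots were left out and spots of one probe averaged; no value of these genes was missing. Of 41174 probes, 29009 were tested because every array of 1 group or more showed them well above background, and 24844 had a gene name through their RefSeq accession.

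limma 3.58.1 in R 4.3.3 fitted 4 group means over all 16 arrays (12 residual degrees of freedom), tested on simulated data first, with Benjamini-Hochberg adjustment over all probes tested and a threshold of 0.05. The genes, the pathway and marker lists and the contrasts tested were chosen with earlier results of these data known. All probes of the 9 genes were named; of the listed pathway genes, those past the threshold, up to 8 per contrast with the smallest p, where 9 passed on the CCH diet and Ap2s1 was added after its value was seen. For likeness, the 5 highest and 3 lowest r were named. Probes of one gene were compared by two-sided exact permutation tests (scipy 1.17.1). Alternatives were normexp (offset 50), quantile normalization, other filters on dim probes, the authors' table, a replicate block, an intensity trend, only the arrays compared, and each array left out. Normexp was run on the median signal and local background in place of the processed signal, so it changes the input signal as well as the background method.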

Additional observations from a re-analysis of the deposited data

Results flagged for a closer look

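Within the 4 arrays of a group, 3 of 48 groups checked held an array far from the others by Dixon's criterion, and chance gives about 1 in 20. Vdr read -3.68 in SAM/P-8 control replicate 1, while its 3 companions lay between -6.18 and -5.78. Slc20a1 probe A_51_P408631 read 2.66 in SAM/R-1 control replicate 2, against 2.76 to 2.78. Xpr1 probe A_52_P419999 read -4.49 in SAM/P-8 CCH replicate 4, against -4.43 to -4.42, and this is the array with the high striatal marker score.

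The CCH effect of Stc1 by probe A_52_P189970 differed between the strains: the effect in SAM/P-8 minus that in SAM/R-1 was -0.73 ± 0.11. The gene was chosen with this value known, so it is a description. By probe A_52_P315733 the same quantity was 0.27.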

How the results depend on the processing

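With normexp, limma called 962, 840, 0, 0 and 0 probes in the strain difference on the control diet, on the CCH diet, the CCH effect in SAM/R-1, in SAM/P-8 and the interaction, against 4004, 3909, 33, 250 and 50. For the last 3, 2466, 2819 and 229 probes had an unadjusted p under 0.05. Of the 12 probes of these genes normexp called 0 in each contrast (1 unadjusted on the control diet, 0 in the others). Xpr1 A_52_P419999 reversed to -0.19 ± 0.33 on the CCH diet. Over all probes the median strain difference on the CCH diet was -0.08 with normexp, beside -0.02. The median CCH effect in SAM/R-1 was 0.10 with normexp, beside -0.01. The strain difference on the CCH diet had 2 of the 12 past the threshold, and 0 with quantile normalization or with only the arrays compared (5 unadjusted in each), 1 without a filter or with an intensity trend, and 0 to 4 when each array was left out. Over all probes the CCH effect in SAM/R-1 had 17 calls with probes above background on all 16 arrays, 9 with the trend and 2 to 43 with an array left out. That in SAM/P-8 had 136 with quantile normalization, 152 without a filter, 28 with only the arrays compared and 72 to 438 with an array left out, and the interaction 33 with quantile normalization and 17 with the filter on all 16 arrays. Of the calls in SAM/R-1, 9.09% were higher on CCH and 34.1% with quantile normalization; for the interaction these were 78.0% and 60.6%. The causes were not tested. Among values with no call, 40 of 650 comparisons with an alternative changed sign.

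The same replicate numbers occur in all groups, and they equal the position on the slide. Deviations of same-numbered arrays correlated between -0.19 and 0.30, so the numbers were not taken as pairs. With the replicate block 4 of the 12 probes passed in the strain difference on the CCH diet, Stc2 (adjusted p = 0.0336), Slc20a2 by both probes (0.0218 and 0.0397) and Xpr1 A_52_P678117, while Xpr1 A_52_P419999 did not (0.0510). Of the named pathway genes Pappa lost its call with the block (0.0814). Over all probes the block gave 20 calls for the CCH effect in SAM/R-1 and 132 for that in SAM/P-8.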
